A study of Mus musculus with 20 samples.

Results

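Formyl peptide receptors are G protein-coupled receptors that sense peptides starting with formyl-methionine, which bacteria and mitochondria make, and that guide neutrophils and macrophages towards sites of infection or injury. FPR1 is known as the high-affinity receptor for short formylated peptides. FPR2 also binds ligands of the host such as serum amyloid A, the antimicrobial peptide cathelicidin and annexin A1, and can pass on either inflammatory or resolving signals. Both couple to Gi, and downstream of them PI3K and Rac drive migration while the NADPH oxidase makes superoxide.

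The data here are the 2 genes Fpr1 (ENSMUSG00000045551) and Fpr2 (ENSMUSG00000052270), of 78317 genes listed, taken by name and described over 5 treatments of bone marrow-derived macrophages (BMDMs). The pair was chosen by the measured level of Fpr1, which was already known from these data to be lower after RNY1-/- than after RNY1+/+ ProteinFx, so the values of both receptors in that contrast are a description without a test. RNY1 is a Y RNA, a small noncoding RNA found in cells and in body fluids. BMDMs of all groups were grown from female C57BL/6J mice of wild-type genotype in medium conditioned by L929 fibroblasts, and were treated on day 7 in medium without serum. PBS served as the control (n = 4 libraries). The other groups received bronchoalveolar lavage fluid (BALF) of ovalbumin-challenged mice, either RNY1+/+ or carrying a CRISPR deletion of RNY1 on both alleles (RNY1-/-), as EV-enriched size exclusion fractions 1 to 4 (EVFx, 35000000 particles per µL) or protein-enriched fractions 9 to 20 (ProteinFx, 0.75 µg protein per µL), with n = 4 libraries in each of RNY1+/+ EVFx, RNY1-/- EVFx, RNY1+/+ ProteinFx and RNY1-/- ProteinFx. Mice were 7 to 16 weeks old, and the BALF fractions were stored for 5 days before use. The genotype is thus that of the donor of the fluid and not of the macrophages. The paper obtained its RNY1-/- mice from GemPharmatech and gives C57BL/6J from JAX for all other mice. A difference between donor genotypes may therefore also be one of supplier or colony, and these cannot be told apart here. How many donor mice stand behind each library is not given in the sources used here. The 2 fractions were dosed in different units, so a difference between fractions is also a difference in dose.

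Total counts per library ranged from 2509945 to 8277283, which puts 3 counts, taken as the limit of detection, at 0.362 to 1.20 CPM (counts scaled to a common library total). Nothing in the labels ties the 4 libraries of a group to separate mice, so p-values measure the spread between these libraries, which may be technical. All 10 macrophage markers were measured above the limit in each group. The gene profile of each of the 20 libraries was nearest to another of its own group, but PBS replicate 3 stood apart from the other PBS libraries, and RNY1-/- ProteinFx replicates 1 and 2 lay apart from replicates 3 and 4, so results are also given without them. In bulk RNA, fewer cells that express a receptor and less of its RNA per cell cannot be told apart.

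In the GENCODE annotation of GRCm38, Fpr1 (chr17:17876471-17883940, minus strand) and Fpr2 (chr17:17887824-17893952, plus strand) are protein-coding genes that lie head to head with 3884 bp between their starts. The authors' processing notes name GRCm39, so these positions place the genes and were not used for counting. The main transcript of each has 2 exons and a coding sequence within 1 exon, of 364 codons in Fpr1 and 351 in Fpr2. Their coding sequences were identical at 70.4% of aligned bases, against 88.1% between Fpr2 and its neighbour Fpr3, whose annotated gene starts 28 bp into Fpr2 and overlaps it. The longest run that Fpr1 and Fpr2 share is 50 bases, and its first 30, coding bases 397 to 426 of Fpr1 and 373 to 402 of Fpr2, show how alike the receptors are there.
Fpr1: atttgtgttctgcatccagtctgggctcag
Fpr2: atttgtgttctgcatccagtctgggctcag
The last 30 coding bases, nearer to the 3′ end from which these libraries were made, tell the 3 genes apart. Capitals mark bases that differ from Fpr2 at the same place counted from the end.
Fpr1: TcCcTtTcTgaAaACACTttaaaTgcAATG
Fpr2: cctcctgcagacattgagttaaaggcccca
Fpr3: cTtcctgAagacattgaAAtaaaggcAATa
Of all 50-base windows of the main Fpr1 transcript, 0.0784% also occur in Fpr2, and 7.10% of those of Fpr2 occur in Fpr3. Reads that fit several places were shared out as fractions, which left fractional Fpr2 counts in 6 libraries and no fractional Fpr1 count in any library. Fpr3 itself had 2.50 counts in all, never above 1.00 in a library, and the other 5 rows of the family (Fpr-rs3, Fpr-rs4, Fpr-rs5, Fpr-rs6 and Fpr-rs7) were at 0 in all 20 libraries, where 0 allows up to 3 counts per library. Fpr2 counts may therefore hold a small share of Fpr3 reads or the reverse.

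Both receptors were close to undetectable in PBS and rose after each of the 4 BALF fractions. Fpr1 in the 4 PBS libraries stood at 0, 0.618, 0.229 and 0.534 CPM, which are 0, 4.00, 1.00 and 3.00 counts. After RNY1+/+ EVFx it was at 56.7, 66.2, 49.9 and 73.1 CPM, with a mean of 61.5 ± 10.2 (SD, n = 4) against 0.345 ± 0.284 in PBS. The 2 groups did not overlap, and the lowest treated library held a level far above the highest of PBS. After RNY1-/- EVFx, Fpr1 was at 38.0, 48.3, 29.8 and 37.4 CPM (38.3 ± 7.58). RNY1+/+ ProteinFx gave 44.6, 46.9, 34.9 and 93.3 CPM (54.9 ± 26.1), with replicate 4 about double the level of the other 3 libraries. RNY1-/- ProteinFx gave 9.45, 6.43, 7.57 and 5.97 CPM (7.35 ± 1.55), the lowest of the treated groups and still above PBS in each library.

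Fpr2 followed a like course with less spread in EVFx. It was at 1.02, 0.463, 0.915 and 1.25 CPM in PBS (0.912 ± 0.329), where 1 library was at the limit of 3 counts and the others just above it. RNY1+/+ EVFx gave 112, 117, 106 and 114 CPM (113 ± 4.68), with the smallest SD relative to its mean of all groups (4.16%). RNY1-/- EVFx gave 76.5, 81.2, 80.3 and 96.3 CPM (83.6 ± 8.73). RNY1+/+ ProteinFx gave 42.5, 45.0, 35.4 and 73.2 CPM (49.0 ± 16.6), and replicate 4 was again the highest. RNY1-/- ProteinFx gave 11.1, 11.3, 8.37 and 7.26 CPM (9.53 ± 2.03).

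**Figure D1:**
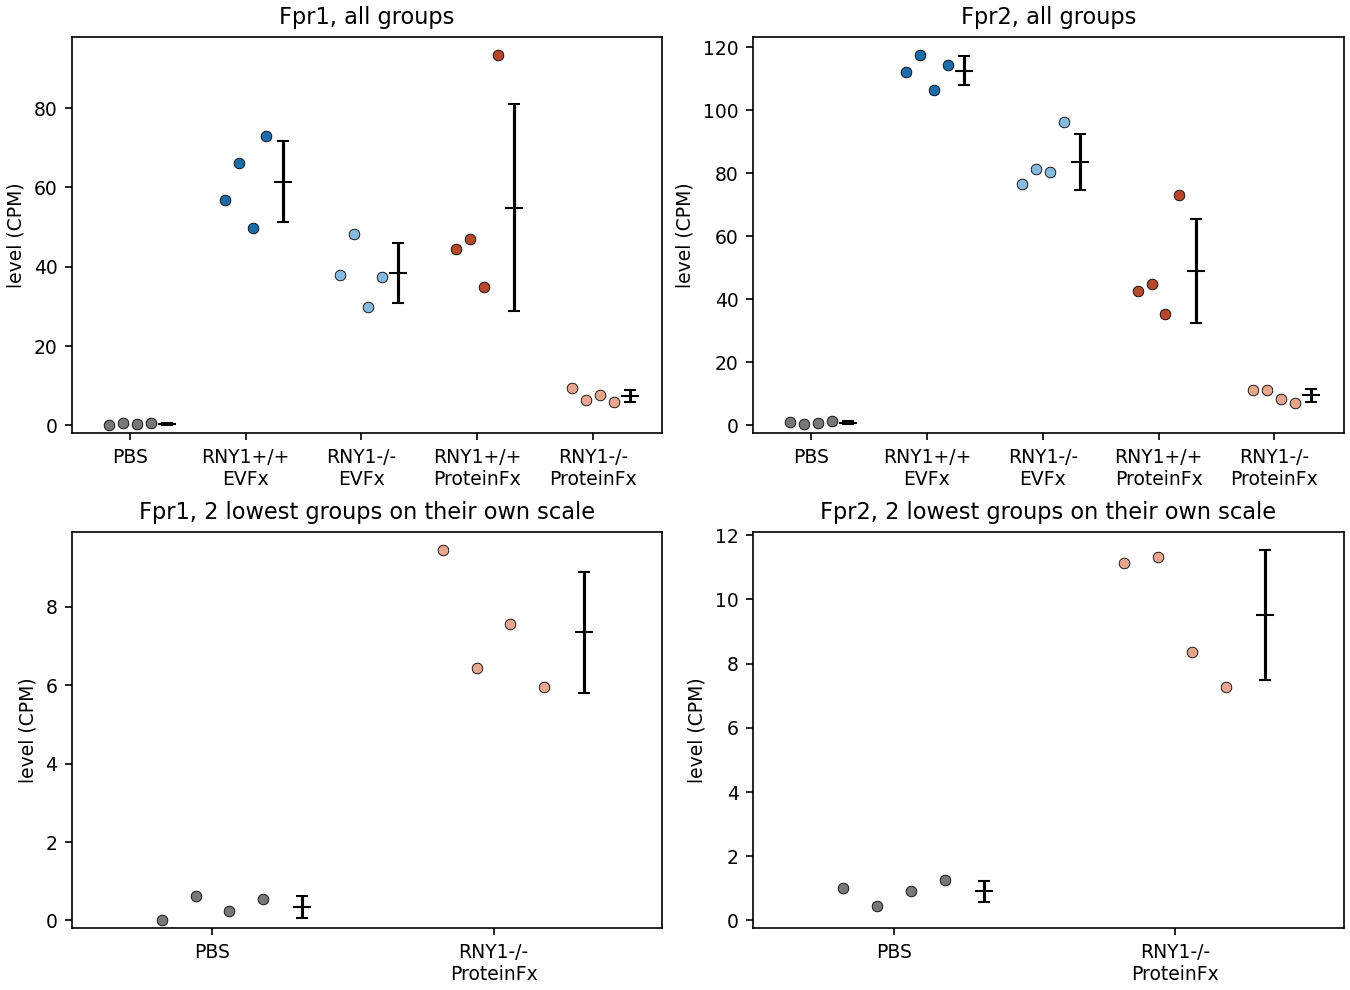
Level of Fpr1 (left) and Fpr2 (right) in CPM, 1 point per library, with the mean and SD of 4 libraries beside each group; the lower panels show PBS and RNY1-/- ProteinFx alone on their own scale. Levels in PBS lie at or under 1.25 CPM, and those after RNY1-/- ProteinFx between 5.97 and 11.3 CPM lie above them for both receptors.

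The order of group means differed between the receptors. For Fpr1 it ran from RNY1+/+ EVFx over RNY1+/+ ProteinFx and RNY1-/- EVFx to RNY1-/- ProteinFx and PBS, where the range of RNY1+/+ ProteinFx overlapped both of its neighbours, while the 2 EVFx groups did not overlap each other. For Fpr2 it ran from RNY1+/+ EVFx over RNY1-/- EVFx and RNY1+/+ ProteinFx to RNY1-/- ProteinFx and PBS, with no overlap between neighbours.

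Against PBS, both receptors were differentially expressed genes (DEGs, adjusted p under 0.05 in the quasi-likelihood test of edgeR after Benjamini-Hochberg correction and an absolute log2 fold change above 1) in all 4 comparisons. These 4 comparisons share the PBS libraries and are not independent. With RNY1+/+ EVFx, the log2 fold change was 7.46 for Fpr1 (SE 0.31, adjusted p = 2.31e-08) and 7.12 for Fpr2 (SE 0.18, adjusted p = 2.03e-09), which rank 10 and 12 from the top among 10797 genes, of which 16.4% were DEGs, 8.24% were called higher and 44.5% passed the adjusted p alone. With RNY1-/- EVFx it was 6.84 for Fpr1 (SE 0.33, adjusted p = 5.21e-08) and 6.75 for Fpr2 (SE 0.22, adjusted p = 5.90e-09), where 22.5% of genes were DEGs, 9.03% were called higher and 58.3% passed the adjusted p alone. With RNY1+/+ ProteinFx it was 7.29 for Fpr1 (SE 0.51, adjusted p = 5.00e-07) and 5.92 for Fpr2 (SE 0.34, adjusted p = 9.51e-08), beside 21.4% DEGs, 8.96% called higher and 55.2% past the adjusted p alone. RNY1-/- ProteinFx gave the smallest rise, 4.28 for Fpr1 (SE 0.42, adjusted p = 3.89e-05) and 3.46 for Fpr2 (SE 0.29, adjusted p = 1.16e-05), where 14.3% of genes were DEGs, 6.31% were called higher and 35.7% passed the adjusted p alone. There the receptors ranked 44 and 77 from the top. The ProteinFx libraries are also those that led to the choice of the receptors, so these latter p-values are not independent of it.

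With so few counts in PBS, the size of each fold is known only within wide bounds. Summed over 4 libraries, Fpr1 had 8 counts in PBS and 1822 after RNY1+/+ EVFx, a depth-corrected ratio of 168 (95% exact interval 84.9 to 389, counting error only). The ratio was 105 (53.0 to 244) for RNY1-/- EVFx, 154 (78.1 to 359) for RNY1+/+ ProteinFx and 19.6 (9.66 to 46.2) for RNY1-/- ProteinFx. Fpr2 had 19 counts in PBS, and its ratios were 127 (81.3 to 212), 93.5 (59.7 to 156), 57.1 (36.4 to 95.3) and 11.3 (7.03 to 19.2) in the same order.

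The PBS library that stood apart did not carry the rise. Without PBS replicate 3, the log2 fold change of Fpr1 was 7.33 for RNY1+/+ EVFx, 6.73 for RNY1-/- EVFx, 7.17 for RNY1+/+ ProteinFx and 4.13 for RNY1-/- ProteinFx, and that of Fpr2 was 7.13, 6.78, 5.94 and 3.47. With only 2 of the RNY1-/- ProteinFx libraries, Fpr2 stood 3.21 (replicates 3 and 4) or 3.64 (replicates 1 and 2) above PBS on the log2 scale, while Fpr1 fell under the limit of a mean of 3 CPM and was not tested.

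**Figure D2:**
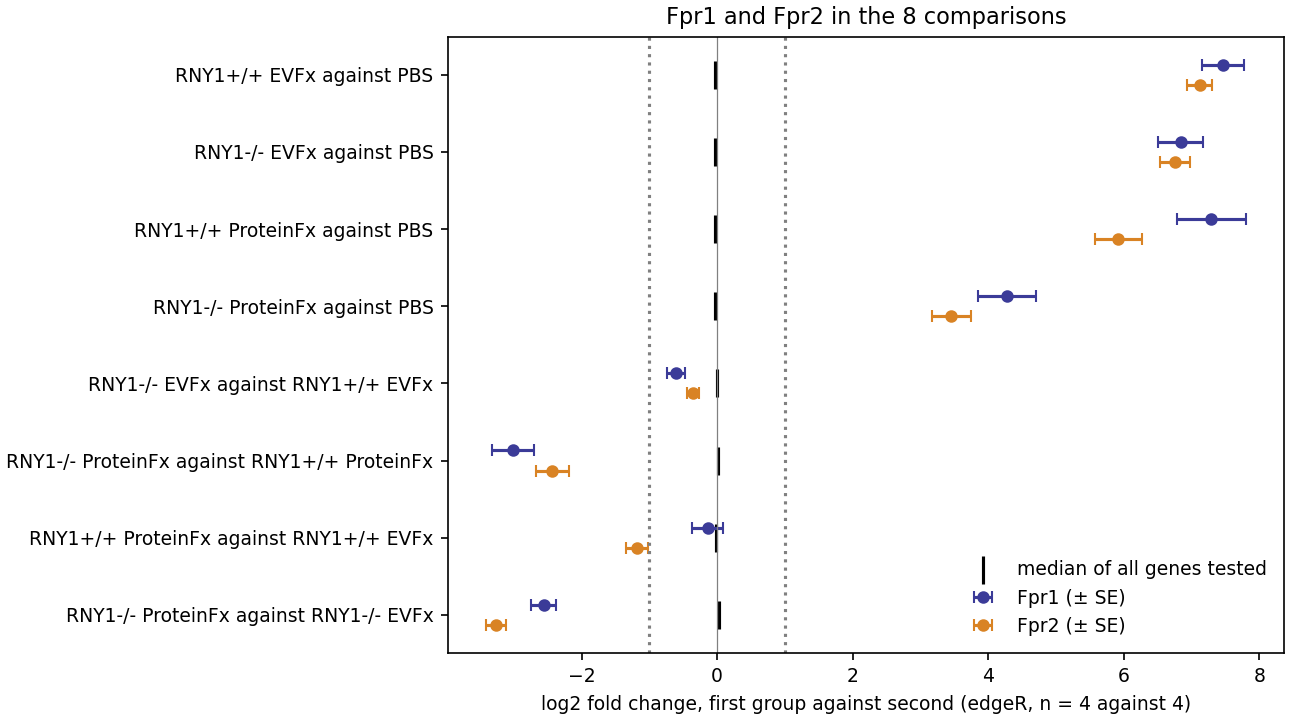
Log2 fold change of Fpr1 and Fpr2 (edgeR estimate, bars ± SE, n = 4 against 4) in the 8 comparisons, with the median of all genes tested as a black tick and dotted lines at the fold limit of 1 and -1. Both receptors lie far to the right in the 4 comparisons with PBS, and in RNY1+/+ ProteinFx against RNY1+/+ EVFx Fpr1 lies near 0 while Fpr2 lies at -1.18.

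The genotype of the BALF donor went with a lower level of both receptors within each fraction, by unequal amounts. After EVFx, the mean of Fpr1 in RNY1-/- was 62.4% of that in RNY1+/+, with 48.3 CPM as the highest RNY1-/- library and 49.9 CPM as the lowest RNY1+/+ library. Fpr2 kept 74.3% of its RNY1+/+ level, from a highest RNY1-/- library of 96.3 CPM to a lowest RNY1+/+ library of 106 CPM. The groups did not overlap for either receptor, although for Fpr1 the gap was narrow. The log2 fold change was -0.61 for Fpr1 (SE 0.14, 95% interval -0.87 to -0.34, adjusted p = 0.00285 in edgeR) and -0.36 for Fpr2 (SE 0.09, -0.53 to -0.18, adjusted p = 0.00513). Neither reached the fold limit and neither was a DEG, in a comparison in which 2.35% of 10320 genes were DEGs (0.378% higher, 1.98% lower) and 52.1% passed the adjusted p alone, so a small difference past the test was common there. With all 20 libraries in 1 fit the adjusted p was 0.0431 for Fpr1 and 0.0797 for Fpr2.

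Base composition moved with this comparison and with some of the others. Across 10019 genes, the log2 fold change of RNY1-/- against RNY1+/+ EVFx fell with GC content (Spearman's rho = -0.65, across genes, which are not independent replicates). Transcripts of Fpr1 hold 45.9% GC and those of Fpr2 44.1%, below the median of 48.6% for the genes tested. After removal of the length and GC trends from each library, the log2 fold change was -0.70 for Fpr1 (adjusted p = 0.00242) and -0.53 for Fpr2 (adjusted p = 0.000567), and the number of DEGs among all genes went from 243 to 93. Against PBS, rho was -0.09 for RNY1+/+ EVFx, -0.42 for RNY1-/- EVFx, -0.46 for RNY1+/+ ProteinFx and -0.49 for RNY1-/- ProteinFx. With both trends removed, Fpr1 stood 7.43, 6.73, 7.17 and 4.16 above PBS on the log2 scale in this order. Fpr2 stood 7.07, 6.54, 5.72 and 3.30 above it. For RNY1+/+ ProteinFx against RNY1+/+ EVFx rho was -0.49, for the fractions in RNY1-/- 0.07 and for the genotypes in ProteinFx 0.16. The part of base composition in these results was not tested further.

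After ProteinFx, the readout that led to the choice of these genes, Fpr1 in RNY1-/- averaged 13.4% of its RNY1+/+ level, and Fpr2 19.4%. The highest RNY1-/- library was at 9.45 CPM for Fpr1 and 11.3 CPM for Fpr2, and the lowest RNY1+/+ library at 34.9 and 35.4 CPM. The log2 fold change was -3.01 for Fpr1 (SE 0.31) and -2.43 for Fpr2 (SE 0.24), the 3rd and the 7th lowest of 10468 genes, of which 1.82% were DEGs (0.659% higher, 1.17% lower) and 5.57% passed the adjusted p alone. Without RNY1+/+ ProteinFx replicate 4, the library with the highest level of both receptors, it was -2.60 and -2.15. With RNY1-/- ProteinFx replicates 3 and 4 alone it was -3.11 and -2.72, and with replicates 1 and 2 alone -2.98 and -2.28. No test is given for these values, and whether the genotype difference itself differs between EVFx and ProteinFx was not tested for the same reason.

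Between fractions of the same genotype, doses were set by particles in EVFx and by protein in ProteinFx. For RNY1+/+, Fpr1 did not differ detectably between ProteinFx and EVFx (log2 fold change -0.14, 95% interval -0.59 to 0.31, adjusted p = 0.606 in edgeR). This value rested on 1 library: without RNY1+/+ ProteinFx replicate 4 it was -0.56 (adjusted p = 0.00391, still short of the fold limit), and without replicate 3 of the same group it turned to 0.03. Fpr2 was lower after RNY1+/+ ProteinFx than after RNY1+/+ EVFx, by -1.18 (SE 0.16, adjusted p = 2.28e-05), where 13.5% of 10443 genes were DEGs, 6.71% were called higher, 6.82% lower, and 63.3% passed the adjusted p alone. For RNY1-/-, both receptors were lower after ProteinFx than after EVFx, Fpr1 by -2.56 (SE 0.18, adjusted p = 6.01e-07) and Fpr2 by -3.26 (SE 0.15, adjusted p = 2.31e-08), where 9.03% of genes were DEGs, 4.05% were called lower and 29.2% passed the adjusted p alone. Both comparisons hold ProteinFx libraries that led to the choice of the receptors, so their p-values, and those of the ratio in the same comparisons, are not independent of that choice.

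Dividing the 2 receptors within each library removes any scaling between libraries. Since the 2 transcripts may be captured with unequal efficiency, the ratio is compared between groups only and not read as a ratio of molecules. The log2 ratio of Fpr1 to Fpr2 counts, each with 0.5 added, averaged -0.89 after RNY1+/+ EVFx (SD 0.19, n = 4), -1.14 after RNY1-/- EVFx (SD 0.32), 0.11 after RNY1+/+ ProteinFx (SD 0.16) and -0.37 after RNY1-/- ProteinFx (SD 0.30). Between RNY1+/+ ProteinFx and RNY1+/+ EVFx it differed by 1.00 with no overlap of the 2 groups, with an exact two-sided permutation p of 0.0286, the smallest that 4 against 4 libraries allow, and 0.200 after adjustment over the 7 comparisons tested. Between RNY1-/- ProteinFx and RNY1-/- EVFx the difference was 0.77 (exact permutation p = 0.0571, adjusted p = 0.200), with overlapping ranges. Between RNY1-/- and RNY1+/+ EVFx it was -0.25 (exact permutation p = 0.229, adjusted p = 0.320). Between RNY1-/- and RNY1+/+ ProteinFx it was -0.48, with no overlap and no test. In PBS it ranged from -3.46 to 0.36, since single counts decide it there, and the 4 comparisons with PBS had adjusted p-values from 0.320 to 0.686.

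**Figure D3:**
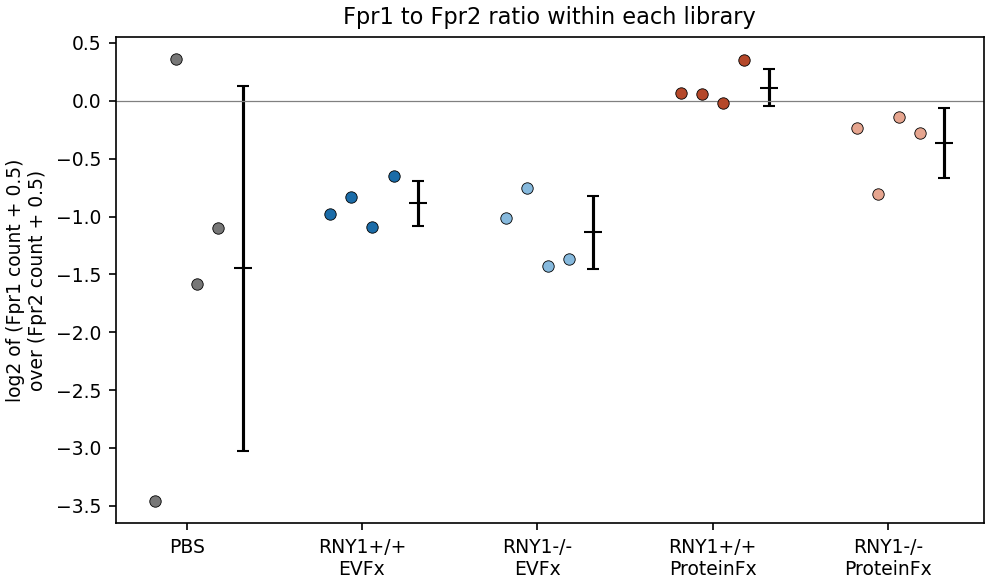
Log2 ratio of Fpr1 to Fpr2 counts (0.5 added to each) in each library, with the mean and SD of 4 libraries beside each group. The 4 RNY1+/+ ProteinFx libraries lie between -0.02 and 0.35, above all libraries of both EVFx groups, and the PBS libraries spread from -3.46 to 0.36.

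Ligands of the receptors are given next. Of the 12 genes listed as ligands or their processing enzymes, 9 passed the filter in the comparison of RNY1+/+ EVFx with PBS, and 1 was called higher and 2 lower, beside 8.24% and 8.20% of all genes. The one that rose was Saa3, a serum amyloid A protein of macrophages. It was at 214, 170, 64.5 and 127 CPM in PBS and at 5438, 5057, 3622 and 4737 CPM after RNY1+/+ EVFx, with no overlap (log2 fold change 5.21, SE 0.34, adjusted p = 4.82e-07 in edgeR). Saa3 also rose with RNY1-/- EVFx (4.09), RNY1+/+ ProteinFx (4.78) and RNY1-/- ProteinFx (2.55). Like the receptors it was lower with RNY1-/- than with RNY1+/+ BALF, by -1.11 in EVFx (SE 0.16, adjusted p = 0.000247) and by -2.22 in ProteinFx (SE 0.23, adjusted p = 0.000193), and was a DEG in both. Anxa1, which encodes annexin A1, went the other way with RNY1+/+ EVFx, from 1099 ± 397 CPM in PBS to 360 ± 23.7 CPM (-1.43, SE 0.21, adjusted p = 0.000204). PBS replicate 3, which stood apart, was at 1680 CPM, and the other PBS libraries were at 839 to 1033 CPM. After RNY1-/- EVFx, Anxa1 was at 493 to 585 CPM, below PBS and above the 324 to 375 CPM of RNY1+/+ EVFx. In ProteinFx it did not differ detectably from PBS in RNY1+/+ (-0.26, adjusted p = 0.274) or RNY1-/- (0.09, adjusted p = 0.823). Camp, the cathelicidin gene, was at 4.36 ± 1.88 CPM in PBS and was called lower with both EVFx (-1.07 and -1.13). After ProteinFx it stood at 0.699 ± 0.426 CPM (RNY1+/+) and 1.19 ± 0.337 CPM (RNY1-/-), and was not tested there because its mean CPM was under the filter.

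Mitochondria are a source of formylated peptides in the body, and their 13 protein-coding transcripts are given next. These are RNA of the treated macrophages and measure formylated peptides neither there nor in the BALF fractions. None was called higher in any of the 8 comparisons, where 0.378% to 9.03% of all genes were. With RNY1+/+ EVFx, 3 were called lower (mt-Nd3, mt-Nd6 and mt-Cytb), beside 8.20% of all genes called lower. With RNY1-/- EVFx 2 were called lower, with RNY1+/+ ProteinFx 1 and with RNY1-/- ProteinFx 0, beside 13.5%, 12.4% and 7.99% of all genes. Their median log2 fold change against PBS was -0.77, -0.52, -0.46 and -0.37 in RNY1+/+ EVFx, RNY1-/- EVFx, RNY1+/+ ProteinFx and RNY1-/- ProteinFx, where the median of all genes was -0.03 in each.

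Genes that carry the signal from the receptors showed no common direction. Of 23 tested G protein, PI3K and Rac genes, 4 were called higher and 3 lower with RNY1+/+ EVFx, beside 8.24% and 8.20% of all genes, with a median of 0.01. The 4 were Gng12, Pik3r5 (a regulatory subunit of PI3Kγ), Vav1 (a Rac exchange factor) and Rac2. Rac2, a GTPase of the oxidase complex in blood cells, rose from 98.5 ± 39.0 to 256 ± 49.6 CPM after RNY1+/+ EVFx (1.55) and was at 93.8 ± 9.86 CPM after RNY1+/+ ProteinFx. None of the 23 was a DEG between RNY1-/- and RNY1+/+ ProteinFx, where only 1.82% of all genes were (191 of 10468, edgeR). At so small a share, the lack of a DEG among 23 genes says little about them. Gng12 passed the adjusted p alone (-0.55, adjusted p = 0.00796), as did Pik3r5 (-0.44, adjusted p = 0.0207), beside 5.57% of all genes. Between RNY1-/- and RNY1+/+ EVFx, 1 was called lower, beside 1.98% of all genes: Gnb2, a G protein beta subunit (-1.04, SE 0.12, adjusted p = 0.000198). It was just past the fold limit, and its value with the length and GC trends removed was not examined. Rac2 was at 128 ± 16.4 CPM after RNY1-/- EVFx, did not overlap with RNY1+/+ EVFx and passed the adjusted p but not the fold limit (-0.93, adjusted p = 0.000227).

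Among the 6 NADPH oxidase genes, Cybb (the catalytic subunit gp91phox) was called higher with all 4 fractions. It rose from 1539 ± 208 CPM in PBS to 6002 ± 644 CPM after RNY1+/+ EVFx (2.14, SE 0.13), 6778 ± 722 after RNY1-/- EVFx (2.38), 4204 ± 562 after RNY1+/+ ProteinFx (1.62) and 3080 ± 194 after RNY1-/- ProteinFx (1.07). Ncf1 and Ncf4, which encode cytosolic subunits, were called higher with RNY1+/+ EVFx (1.36 and 1.44), so that 3 of 6 were called higher there, beside 8.24% of all genes. No oxidase gene was a DEG between genotypes, where only 2.35% of all genes were in EVFx and 1.82% in ProteinFx. Cybb passed the adjusted p alone in ProteinFx (-0.53, adjusted p = 0.0269 in edgeR), beside 5.57% of all genes. In EVFx, where 52.1% of all genes passed it, the median of the 6 was -0.39. Ncf1 ran from 111 to 160 CPM in RNY1-/- EVFx and from 176 to 273 CPM in RNY1+/+ EVFx, while the mean of Cybb was higher in RNY1-/- EVFx.

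Desensitisation genes encode kinases and arrestins that switch off such receptors and RGS proteins that switch off their G proteins. Of 11 tested, 1 was called higher and 3 lower with RNY1+/+ EVFx, beside 8.24% and 8.20% of all genes. Grk3, a receptor kinase, was at 5.01 ± 1.92 CPM in PBS and rose to 15.1 ± 1.87 after RNY1+/+ EVFx (1.78) and 21.1 ± 1.70 after RNY1-/- EVFx (2.34). Rgs18, an RGS protein of blood cells, stood at 105, 98.4, 171 and 105 CPM in PBS and at 11.6, 11.5, 8.81 and 9.42 CPM after RNY1+/+ EVFx, and the groups lay far apart (-3.34, SE 0.20, adjusted p = 2.81e-07). It was lower with RNY1-/- EVFx (-2.43) and RNY1+/+ ProteinFx (-1.68) too and missed the fold limit with RNY1-/- ProteinFx (-0.93). Rgs2 was called lower in the same 3 comparisons (-2.60, -2.15 and -1.72).

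Most other chemoattractant receptors did not share the course of Fpr1 and Fpr2. Of 10 tested, 6 were called lower and 1 higher with RNY1+/+ EVFx, with a median of -2.05, against 8.20% and 8.24% of all genes. RNY1-/- EVFx gave the same counts (6 lower, 1 higher, median -2.04, beside 13.5% and 9.03% of all genes). The one called higher in both was Ccrl2, an atypical receptor that binds chemerin, which rose from 14.3 ± 2.60 to 68.4 ± 8.25 CPM with RNY1+/+ EVFx (2.43). C5ar1, the receptor for complement C5a, was called lower with both EVFx, from 928 ± 68.4 CPM in PBS to 216 ± 22.3 CPM after RNY1+/+ EVFx (-1.93). Ccr1, a chemokine receptor, moved in opposite directions with the 2 fractions. It was at 42.8, 35.8, 64.5 and 30.6 CPM in PBS, at 5.68 to 7.21 CPM after RNY1+/+ EVFx (-2.54) and at 135 to 176 CPM after RNY1+/+ ProteinFx (1.98). Between RNY1-/- and RNY1+/+ ProteinFx, no other chemoattractant receptor was called lower, where only 1.17% of all genes were. Ccr2 (1.55) and Cxcr4 (1.13) were called higher there, beside 0.659% of all genes. With ProteinFx, 3 of the 10 were called higher and 2 lower in RNY1+/+ against PBS (8.96% and 12.4% of all genes), and 2 higher and 0 lower in RNY1-/- (6.31% and 7.99%). From EVFx to ProteinFx, 7 of 10 were called higher in RNY1+/+ (6.71% of all genes), and 6 higher and 1 lower in RNY1-/- (4.98% and 4.05%).

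**Figure D4:**
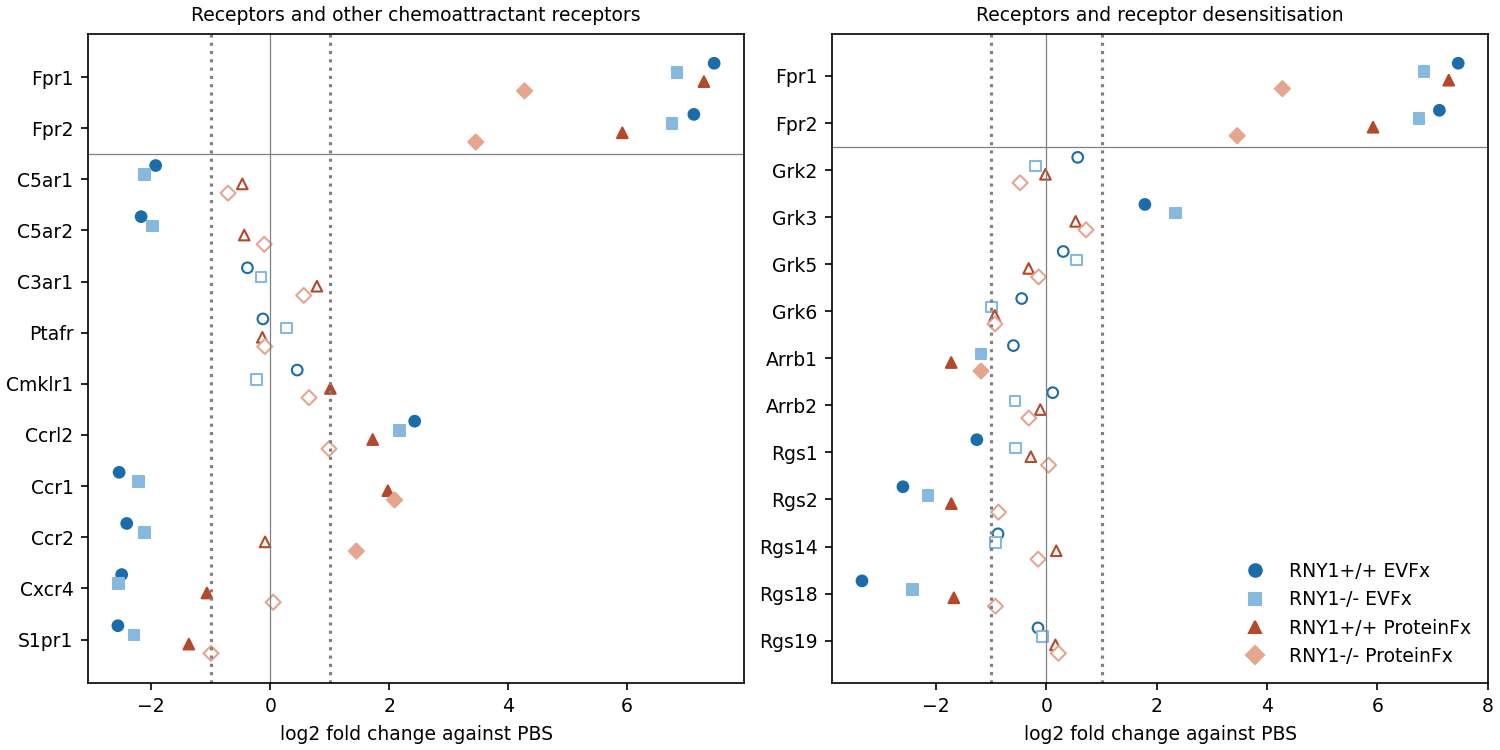
Log2 fold change against PBS of Fpr1 and Fpr2 (above the line) and of other chemoattractant receptors (left) and desensitisation genes (right), 1 symbol per BALF fraction, filled where the gene was a DEG, with dotted lines at 1 and -1. Fpr1 and Fpr2 lie at 3.46 to 7.46, while 6 of the 10 other receptors lie at or below -1.93 with RNY1+/+ EVFx.

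Neutrophils express both receptors strongly, so their markers are given beside the rise, and their part in it was not tested. The summed level of 15 neutrophil markers ran from 354 to 381 CPM in PBS, 193 to 243 after RNY1+/+ EVFx, 222 to 297 after RNY1-/- EVFx, 267 to 389 after RNY1+/+ ProteinFx and 295 to 439 after RNY1-/- ProteinFx, and was thus lower in both EVFx groups than in PBS. S100a8 and S100a9, which monocytes also express, made up most of it. Of 6 tested, 1 was called higher and 2 lower with RNY1+/+ EVFx, beside 8.24% and 8.20% of all genes. The one higher was Lcn2, which encodes lipocalin 2 and which activated macrophages also express, at 7.97 ± 2.36 CPM in PBS and 17.4 ± 2.97 CPM after RNY1+/+ EVFx (1.31, SE 0.22, adjusted p = 0.000587). It was lower after RNY1-/- than RNY1+/+ EVFx by -0.83 (adjusted p = 0.00155, short of the fold limit). Ly6g was at 0 in all libraries but 1, which had 1.00 count, and Elane never exceeded 2.00 counts. Eosinophil markers, 8 genes, summed to 7.65 to 13.6 CPM in PBS, 0.801 to 2.46 in the EVFx groups and 12.7 to 21.4 in the ProteinFx groups, with Epx and Il5ra at 0 throughout. Only Ccr3, a chemokine receptor of eosinophils, was abundant enough to be tested among them. Against PBS it was called lower with RNY1+/+ EVFx (-2.97) and RNY1-/- EVFx (-2.30), beside 8.20% and 13.5% of all genes. It was called higher with RNY1+/+ ProteinFx (1.09, beside 8.96% of all genes) and not called with RNY1-/- ProteinFx (0.66). From EVFx to ProteinFx it was called higher in RNY1+/+ (4.06) and RNY1-/- (2.97), beside 6.71% and 4.98% of all genes. Of 10 airway and alveolar epithelial markers, Sftpa1, Sftpb, Sftpc, Sftpd and Scgb3a2 were at 0 in each group. The 2 that were tested were Krt8 and Krt18, keratins of simple epithelia, of which none was called against PBS and Krt8 was called higher after RNY1-/- than RNY1+/+ EVFx (6.39 ± 2.76 against 2.91 ± 0.849 CPM, 1.13, SE 0.31, adjusted p = 0.00948), where 0.378% of all genes were called higher. The 10 lymphocyte markers summed to at most 9.02 CPM.

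On the chromosome, the genes beside the receptors were low. Spaca6, a sperm gene on the same side as Fpr1, rose from 1.97 ± 1.02 CPM in PBS to 9.52 ± 1.44 after RNY1+/+ EVFx (2.38, SE 0.30, adjusted p = 7.87e-05), and its level of 3.15 ± 2.06 after RNY1-/- ProteinFx against 6.84 ± 3.22 after RNY1+/+ ProteinFx did not pass the test (-1.40, adjusted p = 0.0789). Has1, between Spaca6 and Fpr1, had at most 2.00 counts in a library.

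RefSeq promoters (GRCm38.p6, 250 bases before to 50 after each start) were found for both receptors, at chr17:17883890-17884189 for Fpr1 and chr17:17887574-17887873 for Fpr2. They were searched on both strands, since the genes moved together, for motifs of factors active in macrophages. Neither holds the NF-kB consensus (in 8.46% of 32851 promoters), the ISRE core (3.44%), the C/EBP core TTGCNNAA (10.8%) or the AP-1 core TGANTCA (7.81%). TATAAA occurs once in each (13.6% of promoters), at position -227 in Fpr1 and -130 in Fpr2. The Fpr2 promoter alone holds the PU.1 core GAGGAA (28.3%), on the minus strand at position -19, and the STAT core TTCNNNGAA (8.30%), at position -77. The 2 matches do not overlap and are shown in capitals.
Fpr2 PU.1 core: tcagttttcttgTTCCTCtcagagtttcct
Fpr2 STAT core: tttgcctggcTTCTGGGAAtcttaggaaac
A match is only a description of these letters, and the absence of one says nothing of the factor.

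Last, genes were ranked by how alike their course was to that of each receptor, as Pearson's r of log2 CPM over 20 libraries among 7552 genes with a mean of at least 10 CPM. The 5 group means set most of each r, and no test is given. Closest to Fpr1 were Slc2a6 (r = 0.98), Slc13a3 (0.98), Car13 (0.98), Acod1 (0.98), Sod2 (0.98), Cebpb (0.98), Il1b (0.98) and Bcl2a1a (0.98). After removal of group means, r ranged from -0.18 for Bcl2a1a to 0.68 for Slc13a3. Closest to Fpr2 were Tnfrsf1b (0.99), Gpd2 (0.99), Clec4e (0.99), Slamf7 (0.99), Sod2 (0.99), Acsl1 (0.99), Stx11 (0.99) and Plpp1 (0.99), with r of 0.25 to 0.68 after removal of group means. Fpr2 came 10th for Fpr1 and Fpr1 24th for Fpr2 (r = 0.97, and 0.33 after removal of group means), so each receptor had genes nearer to it than the other receptor. Sod2, mitochondrial superoxide dismutase, was on both lists.

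Those nearest to Fpr1 included Acod1, which makes itaconate, and Il1b, the cytokine interleukin 1β. Acod1 was at 3.56 ± 1.53 CPM in PBS, 934 ± 65.2 after RNY1+/+ EVFx, 715 ± 101 after RNY1-/- EVFx, 615 ± 170 after RNY1+/+ ProteinFx and 140 ± 13.5 after RNY1-/- ProteinFx. Il1b followed at 0.478 ± 0.375, 49.6 ± 6.54, 20.7 ± 5.88, 39.6 ± 31.9 and 6.11 ± 1.91 CPM. In RNY1+/+ ProteinFx, replicate 4 was the highest library for Acod1 (867 CPM) and Il1b (87.1 CPM), as it was for both receptors. Since r was taken over libraries that include it, this is partly set by the choice of these genes. Among those nearest to Fpr2, Clec4e, a receptor for mycobacterial cord factor, was at 19.9 ± 1.83, 3037 ± 232, 2837 ± 506, 817 ± 289 and 178 ± 24.0 CPM in the same order, and Tnfrsf1b, which encodes a TNF receptor, at 245 ± 25.3, 1292 ± 92.1, 1211 ± 104, 898 ± 74.6 and 505 ± 41.6 CPM.

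**Figure D5:**
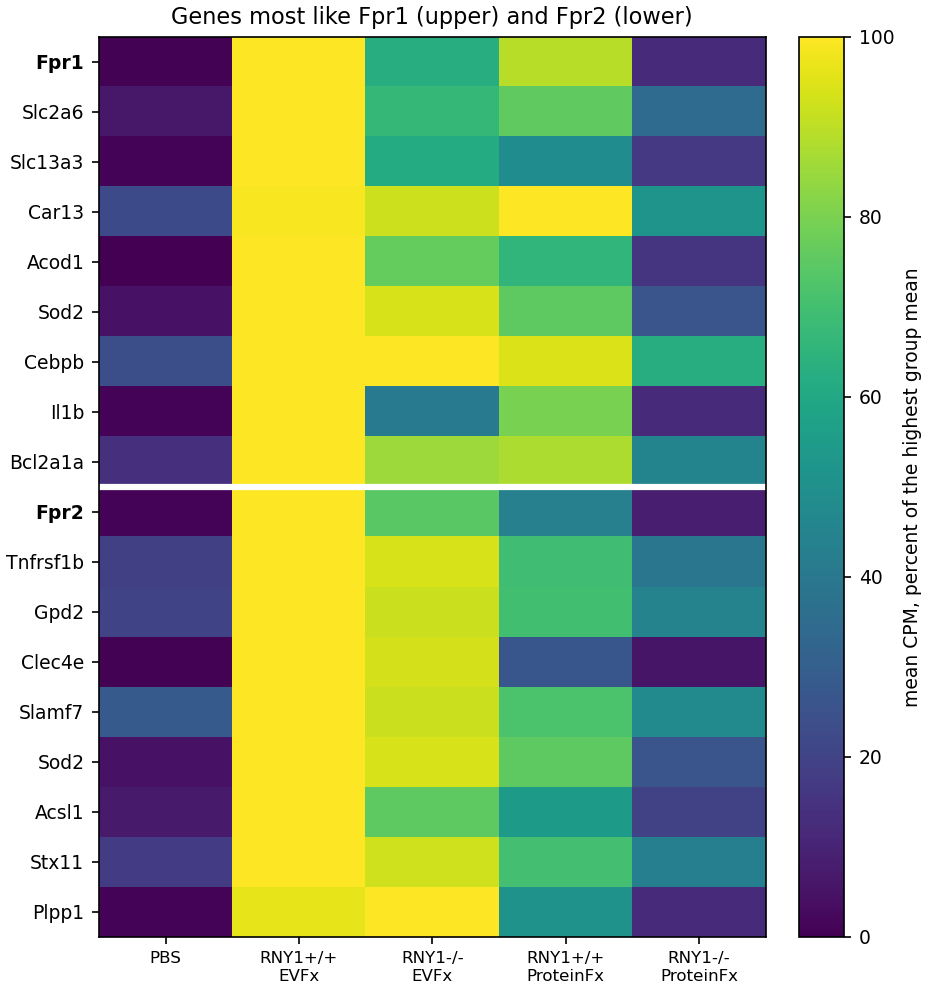
Mean CPM of each group as a percent of the gene's highest group mean, for Fpr1 and the 8 genes most like it (upper) and Fpr2 and the 8 most like it (lower). After RNY1-/- ProteinFx, Fpr2 stands at 8.46% of its level after RNY1+/+ EVFx, the highest group for both receptors.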

How the data were processed

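RNA of 20 BMDM libraries was sequenced from the 3′ end with molecular identifiers. Per the study's methods and the submitters' processing notes, reads were filtered with fastp 0.24.0, aligned with STAR 2.7.11 (GRCm39 in the notes), deduplicated with UMIcollapse and counted by strand on exons and 3′ UTRs with featureCounts (Subread 2.1.1), with reads of several places shared as fractions. The authors deposited expected counts, which are not normalized, and CPM, which equal count over library total. Levels are the deposited CPM.

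Counts were rounded to whole numbers, spike-in rows (0.00145% of counts) left out, and each pair of groups fitted in edgeR 4.0.16 (TMM, quasi-likelihood test) over genes that filterByExpr kept and whose mean CPM across both groups (8 libraries) reached 3. Standard errors were derived from the F statistic. Ratios within libraries were tested with exact permutation tests. DESeq2 1.42.0, library totals, other filters, thinned counts, trend removal, a replicate block and leaving out libraries were alternatives. Fits were tested on simulated data. R 4.3.3, python 3.11.15, scipy 1.17.1 and limma 3.58.1 were used. Named are the receptors, their family, members of gene lists written from textbook knowledge, neighbours on the chromosome, and by rule the 8 genes with the highest r to each receptor. Receptors and lists were chosen with earlier results of these data known. Protein sequences were not used here. Some genes of the lists are not reported here and were left out of their counts.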

Additional observations from a re-analysis of the deposited data

Results flagged for a closer look

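In each group of 4 libraries, the gap of the outermost library to its nearest neighbour was divided by the range of the group and set against Dixon's 95% critical value for a group of this size. Of 125 groups examined, which share libraries across genes and are not independent, 9 were past it, and chance gives about 5% of groups. No group of Fpr1, Fpr2 or their ratio was among them. Slc2a6 in RNY1+/+ EVFx (0.836), Slc13a3 in RNY1-/- ProteinFx (0.912), Saa3 in RNY1-/- EVFx (0.912), Anxa1 in RNY1+/+ EVFx (0.832), Lcn2 in RNY1+/+ EVFx (0.837) and Rgs18 in PBS (0.907) each had 1 library apart. 3 genes most like the receptors had RNY1+/+ ProteinFx replicate 4 apart from the other 3 libraries: Acod1 (0.836), Il1b (0.847) and Plpp1 (0.838). The ranking by r included this library, so sharing its high level is partly set by the choice of these genes. This library was also the highest of its group for Fpr1 and Fpr2, whose gaps (0.795 for Fpr1) stayed under the critical value, and their values without it stand beside the comparisons above.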

How the results depend on the processing

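Of the alternatives run, all 142 of Fpr2, 139 of 140 of Fpr1 and 70 of 72 of the ratio kept their direction. Fpr1 and Fpr2 also kept their side of the call in each of these wherever a test was made, which leaves out RNY1-/- against RNY1+/+ ProteinFx, and the ratio was not tested with libraries left out. Fpr1 in RNY1+/+ ProteinFx against RNY1+/+ EVFx ran from -0.56 to 0.028 with 1 library left out, the sign turning without RNY1+/+ ProteinFx replicate 3. The ratio of Fpr1 to Fpr2 against PBS ran from -0.11 to 1.16 for RNY1+/+ EVFx and from -0.36 to 0.91 for RNY1-/- EVFx, turning without PBS replicate 1, which had 0 Fpr1 counts. Fpr1 could not be tested in RNY1-/- ProteinFx against PBS without RNY1-/- ProteinFx replicates 1 and 2, or 3 and 4, since its mean fell under 3 CPM. Library totals in place of TMM shifted the median of all genes by -0.24 to 0.17.

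Counts of DEGs moved more. With no filter they were 3010, 3801 and 3502 for RNY1+/+ EVFx, RNY1-/- EVFx and RNY1+/+ ProteinFx against PBS, 627 and 326 between genotypes in EVFx and ProteinFx, and 2611 and 1539 between fractions in RNY1+/+ and RNY1-/-, where more genes were tested. Between genotypes in EVFx they were 366 with filterByExpr only, 93 with length and GC trends removed, and 99 (without RNY1+/+ EVFx replicate 4) to 349 with 1 library left out. In ProteinFx the latter range was 115 (without RNY1+/+ ProteinFx replicate 4) to 249, and 405 were called without RNY1-/- ProteinFx replicates 3 and 4. For RNY1-/- ProteinFx against PBS they were 919 without RNY1-/- ProteinFx replicates 3 and 4. They were 908 without PBS replicates 1 and 2 and 2376 without PBS replicates 3 and 4, and both of these PBS settings were chosen after seeing the data. Where no number of genes or libraries changed, the cause was not tested.

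With the replicate number as a block, Fpr1 and Fpr2 between genotypes in EVFx were at -0.61 (adjusted p = 0.000160 in edgeR) and -0.36 (adjusted p = 0.00242), the replicate block changed no call of either receptor, and 225 genes were DEGs against 243. Same-numbered libraries of 2 groups did not deviate together throughout (40 correlations from -0.39 to 0.64, 21 over 0.1), so the numbers were not taken as pairs. Their median correlation was 0.11, above the -0.05 of libraries with different numbers. Whether same-numbered libraries share a batch was not tested. At 2509945 to 8277283 counts, depth limits the level in PBS, where Fpr1 had 8 counts in all.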
